A study of Homo sapiens with 6 samples.

Results

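Antisense noncoding transcripts were taken as the genes whose current symbol ends in -AS and 1 digit, such as BAZ2B-AS1. The rule found 781 such genes among the 19775 genes measured, read by 1083 probe sets that name exactly 1 gene in the platform annotation. Each gene was represented by its probe set with the highest mean over all 6 arrays. RNA came from MV4;11 cells, an established human acute myeloid leukaemia line with a rearranged MLL gene fused to AF4. The 3 control wells received the solvent DMSO for 3 h, and the 3 treated wells received 25 nM cortistatin A (CA) for 3 h. All 6 wells held the same line in the same medium, and no other agent or genetic change separated the groups. Each sample was hybridised to 1 Human U133 Plus 2.0 array, and levels are log2 values from robust multi-array average (RMA) processing. RNA was isolated with RNeasy or TRIzol, and the labels do not tie either to an array. They also do not say that the wells were separate cultures, so the p-values speak to variation among these 6 samples, some or all of it possibly technical. In bulk RNA a lower level per cell and fewer cells with the transcript cannot be told apart.

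Cortistatin A inhibits CDK8 and CDK19, the kinases that join the Mediator complex at RNA polymerase II promoters and enhancers. An antisense gene is transcribed from the strand opposite to its sense gene, often from a start site close to the sense promoter, and its name is built from the sense gene's symbol. Most such transcripts are spliced, capped and polyadenylated like messenger RNA but are retained in the nucleus or turned over quickly, and only a few have a known function. Antisense transcription can accompany, oppose or leave untouched the output of the sense gene, and a comparison of both members of a pair after kinase inhibition addresses how far they move together.

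Among the antisense genes, BAZ2B-AS1 alone passed the test, and it fell with the drug. That is 1 of 781 genes (0.128%) at a limma adjusted p under 0.05, where 115 of all 19775 genes (0.582%) passed, 88 higher and 27 lower. None of the antisense genes rose past the threshold. Without adjustment, 83 antisense genes (10.6%) had a limma p under 0.05, 41 higher and 42 lower, against 12.6% of all genes. The median change was 0.01 on the log2 scale, next to 0.01 over all genes. All 3 CA arrays lay above all DMSO arrays for 47 antisense genes (6.02%), where the share over all genes was 10.2%. They lay below for 41 antisense genes (5.25%), where it was 9.22%.

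Most of the antisense genes were dim. Only 256 of 781 (32.8%) had a mean level above 3.75, the median of all values in the table, while 63.8% of all genes did. Their mean levels ran from 1.23 to 9.40 with a median of 2.98, against a median of 4.75 for all genes, and 6 of them reached 8. The median limma standard error was 0.10 for the antisense genes and 0.08 for all genes. Dim genes were not removed before testing. Among the 256 brighter antisense genes, 35 (13.7%) had an unadjusted limma p under 0.05, where 15% of all genes above the median did. Their groups did not overlap in 14.8%, where the share was 25% for all genes above the median. The brighter antisense genes had a median level of 4.64, against 6.52 for all genes above the median, so these sets were not matched in level. A change of at least 1.2-fold was seen in 52 antisense genes (6.66%, against 5.63% of all genes), 35 of them at or below the median level.

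**Figure D1:**
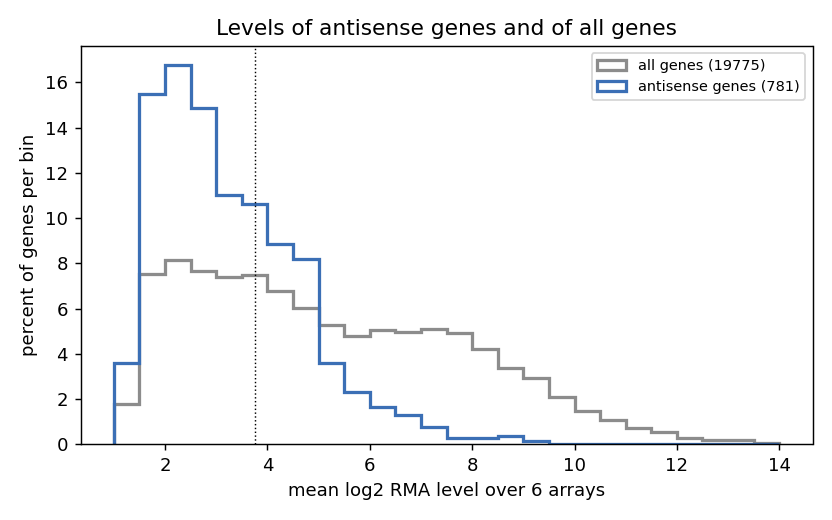
Mean log2 RMA level over 6 arrays (x axis) against the percent of genes in each bin (y axis), for 781 antisense genes and all 19775 genes. The dotted line is the median of all values, 3.75, and 32.8% of the antisense genes lie to its right.

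**Figure D2:**
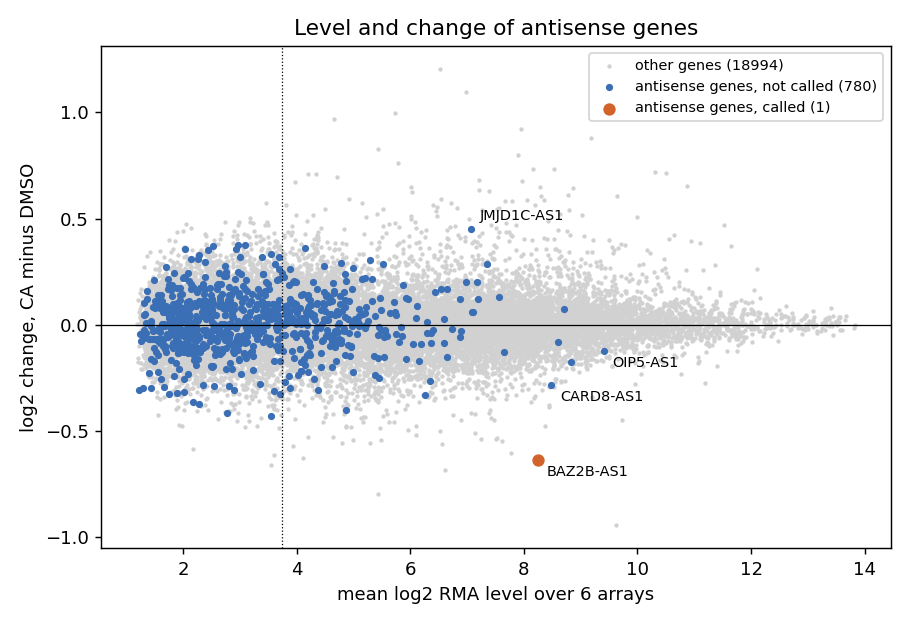
Mean log2 RMA level over 6 arrays (x axis) against the log2 change, CA minus DMSO (y axis), with 1 point per gene and a dotted line at the median of all values. BAZ2B-AS1, at -0.64, is the only antisense gene called and lies apart from the other 780, whose lowest value is -0.43.

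The arrays were alike across the antisense genes, with a median level of 2.96 to 3.03 on each. All 8 markers of leukaemic myeloid cells were above the median of all values, with LYZ at 12.40, FLT3 at 9.65 and MEIS1 at 8.62 in DMSO. Of 11 markers of other cell types 6 were above it as well, with DMSO means from 1.55 (EPCAM) to 6.10 (COL1A1), and none of the markers passed the limma test. For beta-actin the control probe sets at the 3' end exceeded those at the 5' end by 1.75 ± 0.06 on DMSO arrays and by 1.95 ± 0.11 on CA arrays (SD, n = 3), a measure of RNA integrity. The CA values were all higher (exact permutation p = 0.1, two-sided, which is the limit for 3 arrays a group). The mean index of 5 control transcripts overlapped between the groups (exact permutation p = 0.7). It includes ribosomal RNA controls, so it is not a measure of messenger RNA integrity alone. The lowest of the 5 lay at -7.93 ± 0.36 on DMSO arrays (SD, n = 3).

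The pairs BAZ2B-AS1 with BAZ2B and ID2-AS1 with ID2 carry the main contrasts below, and the DNA around their start sites is shown because it places each antisense start beside its sense start. The sequences are RefSeq windows of GRCh38.p14, 5′ to 3′ on the strand of the named gene, with capitals marking searched motifs. BAZ2B-AS1 lies on the plus strand, chr2:159615044-159615343, from 250 bases before to 50 bases after its start. The BAZ2B window is the 250 bases before a start inside the gene, on the minus strand, chr2:159615566-159615815. The ID2 window is the 250 bases before its start on the plus strand, chr2:8681806-8682055.
BAZ2B-AS1: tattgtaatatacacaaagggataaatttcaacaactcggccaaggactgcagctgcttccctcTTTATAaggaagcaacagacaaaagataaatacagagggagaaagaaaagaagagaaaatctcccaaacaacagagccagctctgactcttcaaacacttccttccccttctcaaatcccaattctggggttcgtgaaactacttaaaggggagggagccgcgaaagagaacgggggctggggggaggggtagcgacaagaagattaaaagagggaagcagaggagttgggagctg
BAZ2B: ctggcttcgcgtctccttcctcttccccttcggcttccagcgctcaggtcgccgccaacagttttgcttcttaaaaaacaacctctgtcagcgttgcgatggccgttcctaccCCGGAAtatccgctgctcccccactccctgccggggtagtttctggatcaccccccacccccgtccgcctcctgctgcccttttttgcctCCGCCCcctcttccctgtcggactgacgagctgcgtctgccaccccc
ID2: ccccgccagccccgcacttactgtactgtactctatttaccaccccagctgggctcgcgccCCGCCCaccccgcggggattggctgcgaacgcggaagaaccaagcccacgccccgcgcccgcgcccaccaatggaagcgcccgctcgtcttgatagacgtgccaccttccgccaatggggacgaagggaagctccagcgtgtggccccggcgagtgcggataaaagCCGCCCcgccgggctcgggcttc
The motifs were searched on both strands, and none of them overlap in these windows. They were the TATA letters TATAAA (in 11.5% of all 35116 promoter windows), the GC box GGGCGG (45.0%), the ETS core CCGGAA (17.2%) and the E-box CACGTG (7.26%). The BAZ2B-AS1 window holds the TATA letters once, on the opposite strand, with 46.3% G or C and 6 CpG pairs. The BAZ2B window holds an ETS core and a GC box and the ID2 window holds GC boxes, and none of the 3 holds the E-box. A match is a description of the letters only.

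BAZ2B-AS1 was measured by a single probe set. BAZ2B encodes a bromodomain protein of chromatin remodelling complexes, and RefSeq places a BAZ2B start within 1 kb of the BAZ2B-AS1 start on the other strand, with overlapping genes. The DMSO arrays gave 8.573, 8.563 and 8.563 for BAZ2B-AS1, and the CA arrays gave 7.902, 7.886 and 7.996. Every treated array lay below every control, and the groups were far apart against their spread. BAZ2B-AS1 fell by 0.64 ± 0.05 on the log2 scale (limma standard error, n = 3 per group), or 1.56-fold, with a limma adjusted p of 0.0124. It ranked 12 among all genes by p, and 4 by size among the 27 genes called lower.

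BAZ2B itself lay the other way. Its levels were 8.80, 8.82 and 8.91 in DMSO and 9.10, 9.04 and 9.21 in CA, so that the treated arrays were all higher. The change was 0.28 ± 0.06 and did not pass (limma adjusted p = 0.175). The antisense change minus the sense change was -0.91. That value is a description, since the pair is shown because BAZ2B-AS1 was called, and the same holds for the differences within pairs given below. BAZ2B was read by a single probe set of the _s_at type, which can bind related transcripts.

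The call of BAZ2B-AS1 needed all 6 arrays. Leaving out any one of them gave changes from -0.67 to -0.62, with limma adjusted p from 0.0597 to 0.107, and 0 to 4 of all genes were called in those fits. Adjusted for the mean control index, which includes ribosomal RNA controls, the change was as large, -0.64, with a limma adjusted p of 0.0602. The beta-actin index, higher on all CA arrays, was not used alone as a covariate.

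**Figure D3:**
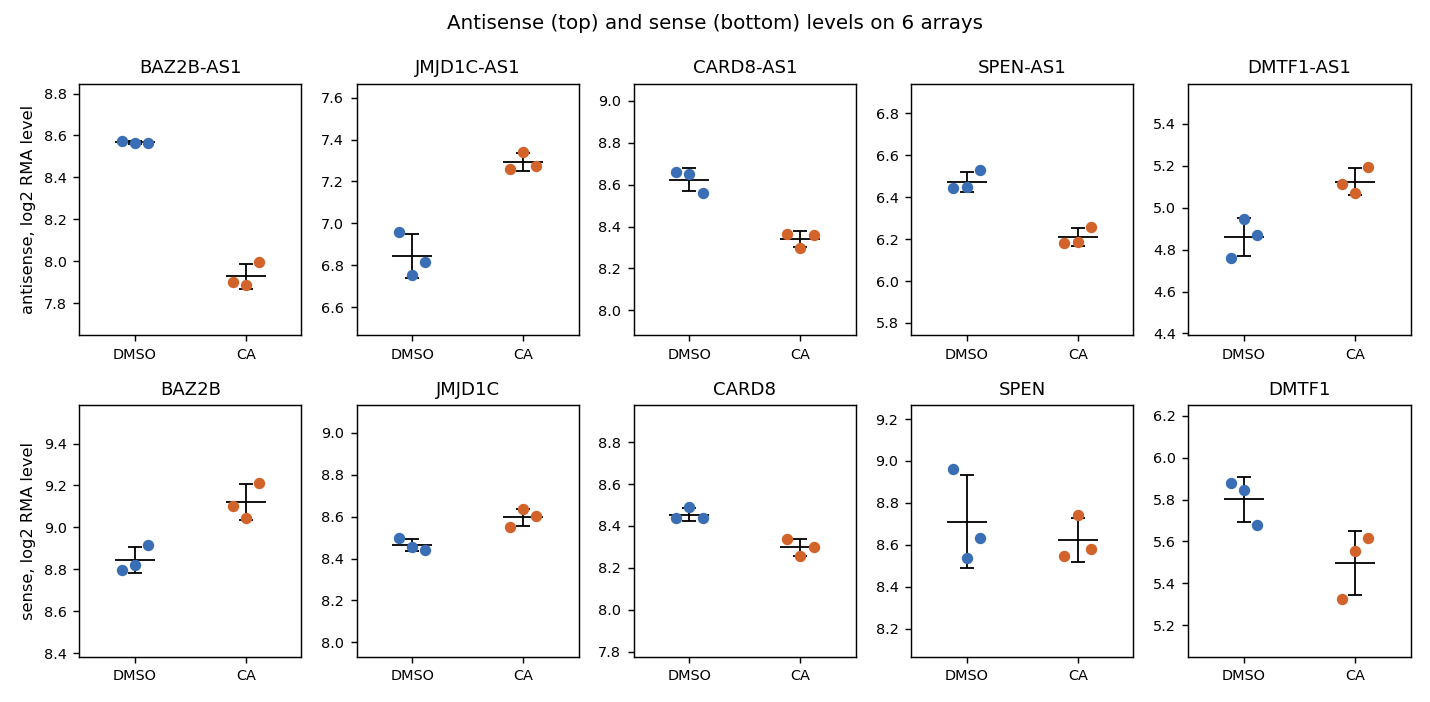
Log2 RMA level (y axes, each spanning the same range) on the 3 DMSO and 3 CA arrays for 5 antisense genes (top) and their sense genes (bottom). Points are arrays and bars are the mean and SD. BAZ2B-AS1 is lower and BAZ2B higher on all CA arrays, CARD8-AS1 and CARD8 are both lower, and SPEN overlaps while SPEN-AS1 does not.

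JMJD1C-AS1 stood next in order of p and had the largest positive change. JMJD1C belongs to a family of histone demethylases. JMJD1C-AS1 measured 6.96, 6.75 and 6.82 in DMSO and 7.26, 7.34 and 7.27 in CA. The groups did not overlap, and the change of 0.45 ± 0.07 narrowly missed the threshold (limma adjusted p = 0.0552). JMJD1C was at 0.13 (limma adjusted p = 0.349), with all CA arrays above all DMSO arrays. The difference between the pair's changes was 0.32. Other bright probe sets of JMJD1C gave larger rises, 0.26 without overlap and 0.23 with overlap, so this difference depended on the probe set. JMJD1C-AS1 did pass the limma test with dim genes left out (adjusted p = 0.0171), with housekeeping centring (adjusted p = 0.0366) and with trend and robust variances (adjusted p = 0.000441). The highest limma adjusted p among its alternatives was 0.258.

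Lower values in both members of a pair were seen at CARD8. CARD8 is a sensor protein that can start inflammasome assembly. CARD8-AS1 was at 8.66, 8.65 and 8.56 in DMSO and 8.37, 8.30 and 8.36 in CA, without overlap, a change of -0.28 ± 0.05 (limma adjusted p = 0.0987). A further bright probe set of CARD8-AS1 was at -0.15, also without overlap. CARD8 was at -0.16 (limma adjusted p = 0.268), with further bright probe sets at -0.28 and 0.38, so the sense gene's direction depended on the probe set. SPEN-AS1, opposite the transcriptional repressor SPEN, measured 6.44, 6.45 and 6.53 in DMSO and 6.18, 6.18 and 6.26 in CA. Its change was -0.27 ± 0.05 (limma adjusted p = 0.117), while SPEN was at -0.09 with overlapping groups. DEPDC1-AS1 was at -0.38 and its sense gene DEPDC1 at -0.17, both without overlap, but DEPDC1-AS1 was dim, with a mean level of 2.28.

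Opposite signs in a pair were also seen at DMTF1 and FAM13A. DMTF1 is a Myb-like transcription factor that activates the ARF tumour suppressor. DMTF1-AS1 was at 4.76, 4.94 and 4.87 in DMSO and at 5.11, 5.07 and 5.19 in CA, a change of 0.27 (limma adjusted p = 0.188). DMTF1 was at -0.30 (limma adjusted p = 0.262), and neither gene's groups overlapped. The pair's changes differed by 0.57. FAM13A-AS1 was at -0.41 and FAM13A at 0.29, both dim and neither past the threshold. Another dim probe set of FAM13A-AS1 gave 0.04.

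The other bright genes with the smallest p and no overlap were few. Higher in CA were PITPNA-AS1 (0.29), opposite a phosphatidylinositol transfer protein gene, ZBED3-AS1 (0.36), FAM83C-AS1 (0.26) and TMEM44-AS1 (0.22). PAN3-AS1, opposite a subunit gene of a poly(A) tail deadenylase, was at -0.33. Levels of PAN3-AS1 were 6.39, 6.57 and 6.30 in DMSO and 6.17, 6.03 and 6.08 in CA. PITPNA-AS1 went from 7.21, 7.23 and 7.19 in DMSO to 7.38, 7.47 and 7.65 in CA. The limma adjusted p of these 5 genes lay between 0.113 and 0.215. Their sense genes PITPNA (-0.12), ZBED3 (0.15), FAM83C (0.16), TMEM44 (-0.04) and PAN3 (0.11) all had overlapping groups. Of the dim genes chosen by the same rule, GSTCD-AS1 (0.35), TDRD6-AS1 (0.33), HOXA-AS3 (0.23) and CCDC148-AS1 (0.19) lay higher. ATXN7L3-AS1 (-0.28), TMCC2-AS1 (-0.26), SRRM2-AS1 (-0.31) and CPEB1-AS1 (-0.32) lay lower, and all 8 had a mean at or below the array median.

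None of the 5 brightest antisense genes passed the test. OIP5-AS1, the cytoplasmic noncoding RNA also known as Cyrano, had the highest mean, 9.40, with 9.42, 9.47 and 9.51 in DMSO and 9.41, 9.33 and 9.28 in CA. The groups came apart by a narrow margin, the change was -0.12 ± 0.06 (limma adjusted p = 0.431), and its other bright probe sets gave -0.17 and 0.03. FGD5-AS1 was at -0.18 (limma adjusted p = 0.283), while its other bright probe set lay the other way, at 0.06 with all CA arrays above all DMSO arrays, and the mean of both gave -0.06. EPB41L4A-AS1, a snoRNA host gene, was at -0.08 (limma adjusted p = 0.563). WAC-AS1, read by a probe set of the cross-hybridising _x_at type, was at 0.07 (limma adjusted p = 0.777), while its sense gene WAC was at -0.23 (limma adjusted p = 0.136) with no overlap.

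The number of antisense genes called also differed with the filter on dim genes and with the variance model, at the same threshold. With dim genes left out limma called 5 of the 256 tested (1.95%), BAZ2B-AS1, CARD8-AS1, JMJD1C-AS1, SPEN-AS1 and ZBED3-AS1, where it called 2.54% of all genes tested there. With trend and robust variances it called 7 of 781 (0.896%), adding FGD5-AS1, PAN3-AS1 and PITPNA-AS1 to BAZ2B-AS1, CARD8-AS1, JMJD1C-AS1 and SPEN-AS1, where it called 3.85% of all genes. The first share was close to that of all genes tested there. In the second fit 32.8% of the antisense genes lay above the median level, against 63.8% of all genes. No conclusion is drawn from either share.

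Sense genes were measured for 715 antisense genes, which name 691 different genes, and 8 of these (1.16%) passed the limma test, 7 higher and 1 lower, next to 0.582% of all genes. In these 8 pairs 0 antisense genes passed the test in the same limma fit, and 1, LDLRAD4-AS1, had an unadjusted p under 0.05. At the shares over all genes, 0.582% and 12.6%, such counts among 8 are not a result about these antisense genes. All 8 sense calls ended when any single array was left out, where 0 to 4 of all genes were called. INHBA, a subunit of activin, had the largest sense rise of the 8, 0.97 ± 0.09, while INHBA-AS1 was at 0.14 ± 0.13 (limma adjusted p = 0.723). INHBA-AS1 measured 3.97, 3.90 and 4.17 in DMSO and 4.34, 4.22 and 3.88 in CA, with overlap. ID2, which binds basic helix-loop-helix factors and keeps them off DNA, rose by 0.73 ± 0.06, from 8.107, 8.183 and 8.213 to 8.847, 8.863 and 8.997. ID2-AS1, which starts within the ID2 window printed above, measured 3.91, 3.82 and 3.72 in DMSO and 3.80, 3.84 and 3.89 in CA. Its change was 0.02 ± 0.06 with overlapping groups (limma adjusted p = 0.915). The other bright probe set of ID2-AS1 gave 0.25 ± 0.14, also with overlap. The ID2-AS1 change minus the ID2 change was -0.71.

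Of the remaining called sense genes, 5 rose and 1 fell. The haematopoietic factor GATA2 rose by 0.53 with GATA2-AS1 at 0.07, and FOSL2, an AP-1 component, rose by 0.45 with FOSL2-AS1 at 0.08. JARID2, a cofactor of Polycomb repressive complex, rose by 0.40 with JARID2-AS1 at -0.04. GTF2A1, the gene of the large TFIIA subunits, rose by 0.34 with GTF2A1-AS1 at -0.10. The linker histone gene H1-10 fell by 0.48 with H1-10-AS1 at -0.05. LDLRAD4, an inhibitor of TGF-beta signalling, rose by 0.68. LDLRAD4-AS1 was the only one of the 8 antisense genes whose groups did not overlap, at 0.25 ± 0.08 (limma adjusted p = 0.259). Groups did not overlap in 11.3% of all antisense genes and in 19.4% of all genes. LDLRAD4-AS1 measured 2.48, 2.64 and 2.41 in DMSO and 2.76, 2.82 and 2.68 in CA. An exact permutation test of the difference within a pair gave p = 0.1, its limit for 3 arrays a group, in each of these 8 pairs. No conclusion is drawn from it, because the pairs were chosen by the change of the sense gene. The LDLRAD4-AS1 change minus the LDLRAD4 change was -0.44, but -0.09 with the mean of all probe sets and -0.09 without _x_at and _s_at probe sets. For GATA2-AS1 the difference was -0.47, and -0.19 when probe sets of each gene were averaged. For FOSL2-AS1 these values were -0.38 and -0.20. Other bright probe sets of these 3 sense genes gave smaller changes, between -0.13 and 0.45 for LDLRAD4, at 0.18 and 0.06 for GATA2 and between 0.04 and 0.36 for FOSL2. GATA2-AS1, ID2-AS1 and INHBA-AS1 had means above the array median and the other 5 were dim. The signs of GATA2-AS1, GTF2A1-AS1, H1-10-AS1, ID2-AS1 and JARID2-AS1 turned in at least 1 alternative.

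**Figure D4:**
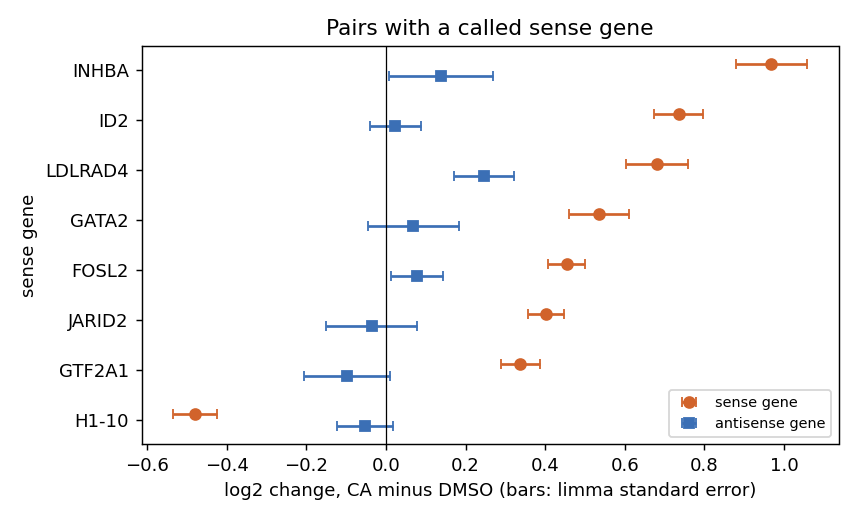
Log2 change, CA minus DMSO (x axis), of the 8 called sense genes (circles) and of their antisense genes (squares), with limma standard errors as bars. INHBA lies at 0.97 and H1-10 at -0.48, while all antisense genes lie between -0.10 and 0.25.

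Across all 715 pairs the antisense and sense changes showed no correlation (Pearson r = -0.01, Spearman rho = -0.02). This is a description, because all pairs share the same 6 arrays. The median size of the antisense changes, 0.085, was below their median limma standard error, 0.095, so these correlations cannot exclude a relation. The sign was shared in 342 pairs (47.8%), 196 with both positive and 146 with both negative. In the 195 pairs with both genes above the array median, r was -0.06 and the sign was shared in 85 (43.6%). The CA and DMSO groups did not overlap for both genes in 21 pairs, 11 of them in the same direction. Taken singly, groups did not overlap in 11.3% of the antisense genes and 19.5% of the sense genes, against 19.4% of all genes. Whether 21 differs from what these shares give was not tested.

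Position next to the sense start was examined for 470 antisense genes that RefSeq (GRCh38.p14) places against a measured sense gene. The start sites lay within 1 kb of each other on opposite strands for 196 of them. In 150 of these the genes overlap, and 26 antisense genes (17.3%) had an unadjusted limma p under 0.05, 11 higher and 15 lower, BAZ2B-AS1 among them. In the 46 whose genes lie apart 3 did (6.52%), all lower. Among 259 antisense genes that overlap the sense gene with a distant start, 26 did (10.0%). The share over all genes was 12.6%, and the differences between these classes were not tested. Among the 150 pairs with near starts and overlapping genes, the correlation of antisense and sense changes was -0.01, and 77 shared the sign.

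**Figure D5:**
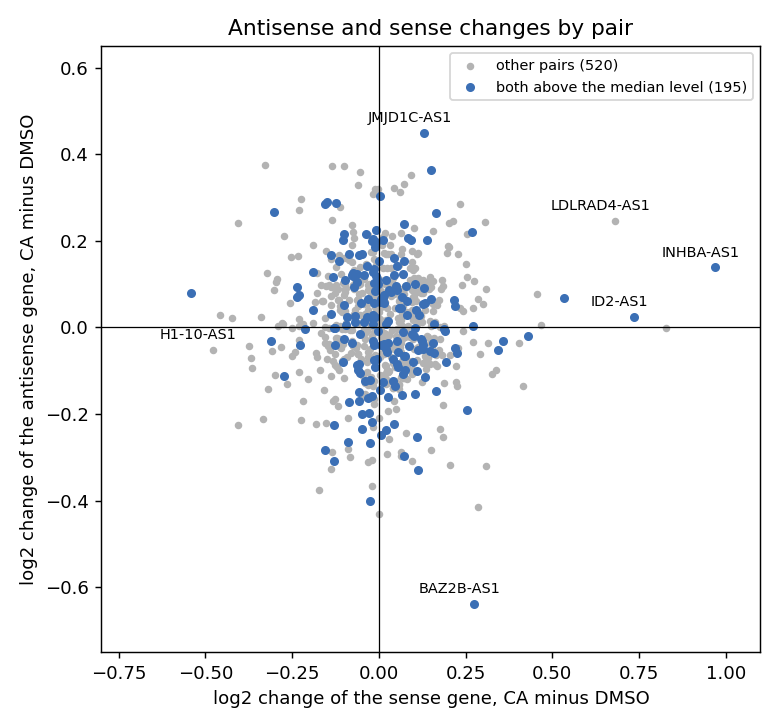
Log2 change, CA minus DMSO, of the sense gene (x axis) and of the antisense gene (y axis), with 1 point per pair (715 pairs) and darker points where both genes lie above the median level. The points spread around 0 without a slope (r = -0.01), with INHBA and ID2 far right near 0 on the y axis and BAZ2B-AS1 at the bottom.

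Groups of antisense genes were described by lists of sense genes, which were chosen with earlier results known and do not hold every gene of a kind. Beside each count below stand the shares over all genes, 0.582% called and 12.6% with an unadjusted limma p under 0.05. Of 21 in the list for chromatin and transcription genes, 1 passed the limma test, BAZ2B-AS1, which fell. In that list 2 (9.52%) had an unadjusted p under 0.05, 1 in each direction, and the median was 0.07. JMJD1C-AS1, with the largest rise of all antisense genes, and SPEN-AS1 are not in the list. Nor are the antisense genes of JARID2, GTF2A1 and H1-10. Within the list the smallest p after BAZ2B-AS1 belonged to SP2-AS1 (0.29, limma adjusted p = 0.307) and KMT2E-AS1 (0.17, limma adjusted p = 0.431), both with overlapping groups. Outside the list, JMJD1C-AS1 and SPEN-AS1 had a smaller p than SP2-AS1. Of 27 in the list for blood and immune genes 0 passed the limma test, 6 (22.2%) had an unadjusted p under 0.05, 3 in each direction, and the median was 0.09. They were led by CARD8-AS1 (-0.28), FAM13A-AS1 (-0.41) and LEF1-AS1 (0.31), the last opposite a Wnt pathway factor of lymphoid cells and dim. No blood or immune role of FAM13A is shown here, so the share of 22.2% describes the list as chosen. Of 34 opposite zinc finger genes 0 passed the limma test, 3 (8.82%) had an unadjusted p under 0.05, and the median was -0.03. ZNF22-AS1 (-0.43, dim), ZNF232-AS1 (0.20) and ZFHX4-AS1 (0.15, dim) had the smallest p there. The probe set of ZNF232-AS1 is of the _s_at type, and its other bright probe set gave 0.09 with overlapping groups.

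HOX cluster antisense genes were of interest because MLL fusions keep HOXA genes active. Of 6 measured, 0 passed the limma test, and 2 had an unadjusted p under 0.05, both from the HOXA cluster and both higher, where 12.6% of all genes had one. With so few genes, no call is what the share of 0.582% over all genes gives. HOXA-AS2 measured 4.02, 4.06 and 4.03 in DMSO and 4.13, 4.20 and 4.21 in CA, a change of 0.15 ± 0.05 without overlap (limma adjusted p = 0.288). Its other probe sets were dim and overlapped. HOXA-AS3 measured 2.64, 2.52 and 2.65 in DMSO and 2.76, 2.87 and 2.86 in CA, a change of 0.23 ± 0.06 (limma adjusted p = 0.204) at a dim level. HOXB-AS1 (0.10), HOXB-AS3 (-0.05), HOXC-AS3 (-0.16) and HOXD-AS2 (0.06) had overlapping groups.

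Genes that degrade noncoding RNA were examined beside the transcripts. Of 28 measured genes of the RNA exosome, its nuclear adaptors and the cytoplasmic decay enzymes, 0 passed the limma test, 5 (17.9%, against 12.6% of all genes) had an unadjusted p under 0.05, 3 higher and 2 lower, and the median was 0.03. At the share of 0.582% called over all genes, no call among 28 is not a result about these genes. EXOSC6, an exosome core subunit, was at 7.64, 7.56 and 7.69 in DMSO and 7.41, 7.33 and 7.28 in CA, a change of -0.29 (limma adjusted p = 0.136). The subunits EXOSC3 and EXOSC4 were at 0.16 and 0.15 (limma adjusted p = 0.282 and 0.352), with no overlap of the groups.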

How the data were processed

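RNA of 6 samples, 3 per group by their titles, was measured on single-colour arrays. Per the submitters' processing notes the authors used RMA and the affy package, and the deposited values were taken as log2 because they lie between 0.81 and 13.84. The array medians were 3.74 to 3.77. RMA brings arrays to a common distribution, so a shift of all transcripts would be removed. No genome build is named for the values, and which strand a probe set reads rests on the platform annotation; probe sequences were not used here. The number of arrays limits the precision.

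Probe sets of 1 gene (41091 of 54675) were named by the platform annotation, and 41037 symbols were updated by gene identifier through RefSeq (GRCh38.p14). For 7 of the 1083 antisense probe sets the platform symbol was kept. CA and DMSO arrays were compared over all 19775 genes by limma 3.58.1 under R 4.3.3 (functions lmFit and eBayes, a two-sided test of the group, 4 residual and 2.68 prior degrees of freedom), and genes with an adjusted p under 0.05 by the Benjamini-Hochberg method were called. The step was tested on simulated data. Control indices and the differences within named pairs were compared by exact permutation over arrays. No sample was left out, and no 2 arrays held nearly identical values.

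Named were the antisense gene called, the 10 smallest p in each direction among genes without overlap, HOX cluster antisense genes, the 5 brightest, those with a called sense gene, the 3 smallest p of each list, and their sense genes. The members and lists were chosen with earlier results of these data known. Alternatives were a replicate block, dim genes left out, other probe set choices, all probe sets tested, further quantile normalization, centring on 21 measured housekeeping genes, trend and robust variances, a 3' to 5' control index as covariate, each array left out, an adjusted p under 0.1 and a fold of at least 1.2.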

Additional observations from a re-analysis of the deposited data

How the results depend on the processing

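The number of antisense genes called was 1 in the main comparison and 0 with each array left out, 0 with the replicate block and 0 with the 3' to 5' index as covariate (limma; 68 to 80, 70 and 78 of them had an unadjusted p under 0.05). Over all genes limma called 115, 0 to 4 with single arrays left out, 0 with the replicate block and 9 with the index. The antisense count was 5 with dim genes left out, 5 at an adjusted p under 0.1, 2 with housekeeping centring and 7 with trend and robust variances, where 2.54%, 1.31%, 0.814% and 3.85% of all genes were called. The sense genes called were 8, and 0 with each array left out, with the replicate block or with the index as covariate. They were 4 with all probe sets tested, 4 with the mean of probe sets, 2 without _x_at and _s_at probe sets, 20 with dim genes left out, 15 at an adjusted p under 0.1 and 43 with trend and robust variances. All features called in the first 3 of these settings were 74 of 41091 probe sets, 76 of 19775 genes and 54 of 17098 genes. The labels state no pairing of same-numbered arrays, and their deviations from the group means correlated at -0.05, 0.01 and 0.02 over all genes. Such values cannot exclude a shared culture or batch that acts on some genes. With the replicate block 2243 of all genes had an unadjusted p under 0.05. The median antisense change was 0.067 with housekeeping centring, where the median of all genes was 0.061, and it ranged from -0.0046 to 0.022 with single arrays left out. BAZ2B-AS1 had a limma adjusted p of 0.175 with the replicate block. The cause of these differences was not tested, beyond fewer arrays in each left-out fit and fewer genes without dim genes.

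Over 43 named antisense genes and their alternatives 590 of 624 values kept direction and side of the threshold, 11 newly passed and 8, all of BAZ2B-AS1, no longer passed. Signs turned for HOXB-AS3 with housekeeping centring (0.0035) and the mean of its probe sets (0.036), for H1-10-AS1 with that centring (0.0015), and for JARID2-AS1 with that centring (0.018) and with the index (0.021). With single arrays left out, values ran from -0.040 to 0.15 for GATA2-AS1, from -0.18 to 0.0092 for GTF2A1-AS1, from -0.11 to 0.011 for H1-10-AS1, from -0.16 to 0.0076 for HOXB-AS3, from -0.023 to 0.069 for ID2-AS1 and from -0.14 to 0.044 for JARID2-AS1. Most antisense genes are dim, at or below the median of all values, and no detection measure was used. Of 39 genes with over 1 bright probe set, 20 had the same sign in all of these.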

Other observations

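Noncoding genes with other names are set here beside the shares over all genes, 0.582% called and 12.6% with an unadjusted limma p under 0.05. Of 833 LINC genes 71 (8.52%) had an unadjusted p under 0.05 and 1 passed the limma test, LINC02724, which rose by 0.39 (limma adjusted p = 0.0420) from 4.59, 4.64 and 4.61 in DMSO to 5.04, 4.93 and 5.03 in CA. LINC02724 lies above the array median, as 18.6% of these genes do. Of 197 divergent transcripts, named -DT after the neighbouring gene, 0 passed the limma test and 20 (10.2%) had an unadjusted p under 0.05, 9 higher and 11 lower. CEBPA-DT, next to the myeloid regulator CEBPA, measured 6.49, 6.52 and 6.49 in DMSO and 6.81, 6.70 and 6.79 in CA, a change of 0.27 ± 0.05 (limma adjusted p = 0.109), while CEBPA rose by 0.42. AFTPH-DT was at -0.31 (limma adjusted p = 0.0861) and RNASEH1-DT at 0.32 (limma adjusted p = 0.0943), both without overlap. Among 10 snoRNA host genes (SNHG), 26 intronic transcripts, 7 overlapping transcripts and 22 opposite-strand transcripts 0 passed the limma test, and 0, 1, 2 and 0 had an unadjusted p under 0.05. Lists this small would hold few or no calls at the share over all genes.

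Further pairs were chosen after their values were seen. The first 3 pairs had sense groups that did not overlap and antisense groups that did. The Integrator subunit INTS6 was at -0.54 (limma adjusted p = 0.0545) with INTS6-AS1 at 0.08. The cystine transporter SLC7A11 was at 0.83 (limma adjusted p = 0.0569) with SLC7A11-AS1 at -0.0017, and MEF2C at 0.47 (limma adjusted p = 0.0720) with MEF2C-AS1 at 0.0058, both antisense genes dim. SOCS2-AS1 (0.37, dim) and SOCS2 (-0.14) lay in opposite directions without overlap, and TOB1-AS1 (-0.17, dim) and TOB1 (-0.22) lay in the same direction. USP30-AS1 (0.38, dim) had overlapping groups, while USP30 was at -0.33 without overlap. The differences within these pairs were not tested.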
